A study of Mus musculus with 13 samples.

Results

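The small RNA table of this mouse glycoRNA study assigns each sequence to an RNA class, and 712 of its 18385 sequences carry the class miRNA. They were taken by that class field alone and followed through all 9 small RNA libraries, by annotated record and by read length. The table names them by 145 sequence records rather than by miRNA, and 90 of these records hold 1 sequence. A sequence was therefore given the name of a miRNA arm only where it matched a mouse hairpin of RefSeq (GRCm38.p6, the build mm10) or held a whole mature arm.

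Each group was 1 library, so no difference between groups has a replicate check, and intervals below are exact 95% intervals of the recovered reads that cover counting error only. Bone marrow neutrophils of wild-type mice gave a library purified on beads of WGA, a lectin that binds sialic acid and N-acetylglucosamine, and an input library. Differentiated HOXB8 cells gave biotin, biotin with PNGase F, WGA and input libraries, and undifferentiated HOXB8 cells gave biotin, WGA and input libraries. HOXB8 cells are a mouse progenitor line held immature by an estradiol-dependent Hoxb8 and maturing into neutrophil-like cells without it. The medium of both states held 100 ng/ml SCF, and that of undifferentiated cells also 1 µM estradiol. Ac4ManNAz, a sugar that cells turn into sialic acid carrying an azide, was added to the cultures at 100 µM for 36 h together with 10 µM Gal and 100 µM GalNAc. The labels do not say whether the primary neutrophils were labelled as well, so a WGA ratio in neutrophils and one in HOXB8 cells may differ in labelling too. Biotin libraries hold RNA clicked to biotin at the azide and pulled down on streptavidin, and PNGase F cuts N-glycans off after purification. Input RNA was cut from a gel below 300 nt, a step the labels give for inputs only, so purification and this size step cannot be told apart in any purified-to-input ratio.

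A miRNA is cut from a hairpin precursor by Drosha and Dicer, and the mature arm guides Argonaute to mRNAs. Bases 2 to 8 from the 5′ end, the seed, pair with the target, so arms with the same seed form families. miR-223 is the classic granulocyte miRNA, and the let-7, miR-16 and miR-17 families are known for control of growth and cell cycle genes.

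By count of sequences, a small part of the class was named as miRNA arms. By RPM that part held from 0.357% of the class in neutrophil WGA to 63.9% in neutrophil input. Whether sequences without an arm name are miRNA was not tested. RefSeq placement named 100 sequences, 85 by an exact match on a hairpin and 15 as a whole arm with other bases at an end, and these are called miRNA-arm sequences below. Another 12 belonged to the record of miR-5099, and 277 from 19 records shared a run of 16 bases with sequences that the table itself calls rRNA. A further 191 sequences came from 4 records that are over 1000 bases long, too long for a hairpin, and 132 fell in none of these groups. The groups were drawn after the values had been seen. Runs of 14 or 18 bases in place of 16 gave 305 or 236 class sequences shared with rRNA, against 289 with 16 bases, the miR-5099 record included.

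Arms that the results below turn on are shown with the seed in capitals. They are RefSeq mature sequences, written 5′ to 3′, and the table holds 55 such named arms with 37 seeds, of which 10 seeds are shared by 28 arms.
miR-16-5p (Mir16-1, chr14:61631936-61631957, minus strand; also in Mir16-2): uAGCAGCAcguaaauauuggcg
let-7i-5p (chr10:122985698-122985719, minus strand): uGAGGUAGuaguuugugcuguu
let-7a-5p (Mirlet7a-1, chr13:48538239-48538260, minus strand): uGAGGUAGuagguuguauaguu
let-7c-5p (Mirlet7c-1, chr16:77599672-77599693, plus strand; also in Mirlet7c-2): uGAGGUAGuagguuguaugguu
miR-223-3p (chrX:96242884-96242905, plus strand): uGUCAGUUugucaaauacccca
miR-27b-3p (chr13:63300760-63300780, plus strand): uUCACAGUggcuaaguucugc
miR-92a-3p (Mir92-1, chr14:115044476-115044496, plus strand; also in Mir92-2): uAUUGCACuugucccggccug
miR-25-3p (chr5:138165332-138165353, minus strand): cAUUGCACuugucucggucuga
miR-181a-5p (Mir181a-1, chr1:137966468-137966490, plus strand; also in Mir181a-2): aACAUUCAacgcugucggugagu
miR-93-5p (chr5:138165574-138165596, minus strand): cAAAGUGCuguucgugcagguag
miR-24-3p (Mir24-1, chr13:63301251-63301272, plus strand; also in Mir24-2): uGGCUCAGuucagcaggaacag
miR-21a-5p (chr11:86584120-86584141, minus strand): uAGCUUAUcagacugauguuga
miR-30e-5p (chr4:120772660-120772681, minus strand): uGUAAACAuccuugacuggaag
The 3 let-7 arms share a seed, as do miR-92a-3p and miR-25-3p. Many table sequences differed from the mature arm at the 3′ end. Of the 100 miRNA-arm sequences 21 were identical to the mature sequence and 85 kept its 5′ end and so its seed. The highest form of miR-223-3p was 19 bases long and lacked 3 bases at the 3′ end, tGTCAGTTtgtcaaatacc. The highest form of miR-30e-5p was 16 bases long and lacked 6, tGTAAACAtccttgac.

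Depth was 3110323 to 9922659 reads per library, recovered from the deposited values in RPM, which scale each library to the same total of reads, and neutrophil WGA was the deepest. The table covered 39.3% of the reads of HOXB8 input, 70.2% of differentiated HOXB8 input and 88.3% to 96.7% of the other 7. A ratio of RPM over the whole library and a ratio of shares of the table can therefore differ. The share of the table lowered every log2 ratio to HOXB8 input by 0.84 to 1.22 and every WGA or biotin ratio to differentiated HOXB8 input by 0.41 to 0.46, and moved neutrophil WGA over neutrophil input by -0.03. Results below are in RPM unless the share is named.

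The class summed to 11276 RPM in neutrophil WGA, against 27187 RPM in neutrophil input. It summed to 15223 RPM in differentiated HOXB8 biotin PNGase F, 15487 RPM in biotin, 14900 RPM in WGA and 12872 RPM in input. It summed to 16495 RPM in HOXB8 biotin, 23564 RPM in WGA and 13589 RPM in input. The ratio of WGA to input was 0.415 (0.411 to 0.418) in neutrophils, 1.16 (1.15 to 1.17) in differentiated HOXB8 and 1.73 (1.72 to 1.75) in HOXB8, and as shares of the table the differentiated HOXB8 and HOXB8 ratios fell below 1, to 0.840 and 0.753. Over these 3 log2 ratios a two-sided exact permutation test that flips signs gave p = 1, where 0.25 is the smallest this design can give.

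The total hid a change in what the class consisted of. Arm sequences made up 0.357% of the class RPM in neutrophil WGA, against 63.9% in neutrophil input. They made up 28.2%, 25.5% and 21.5% in differentiated HOXB8 biotin PNGase F, biotin and WGA, against 23.5% in its input. They made up 8.48% in HOXB8 biotin and 7.97% in HOXB8 WGA, against 3.76% in HOXB8 input. Sequences that share runs with rRNA held 52.5% of the class in neutrophil WGA against 26.1% in neutrophil input, and 57.3% and 48.1% in HOXB8 biotin and WGA against 27.6% in HOXB8 input. In differentiated HOXB8 they held 39.9%, 43.7% and 38.9% in biotin PNGase F, biotin and WGA, against 37.6% in input. A share of the class depends on the other groups too. In RPM the rRNA-sharing sequences were lower in neutrophil WGA, 5924 RPM against 7108 RPM in neutrophil input, a ratio of 0.833. They were higher in HOXB8 biotin and WGA, 9451 RPM and 11333 RPM against 3756 RPM in HOXB8 input.

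**Figure D1:**
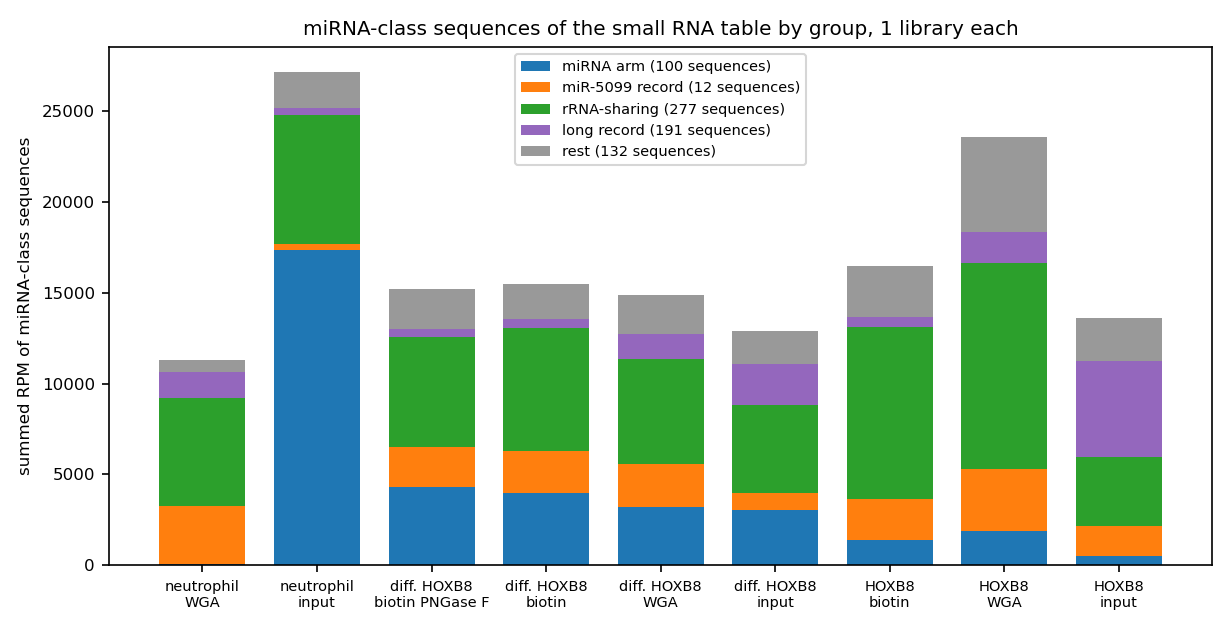
Summed RPM (y axis) of the 712 miRNA-class sequences in each of 9 libraries (x axis, 1 library a bar), stacked by group, with no error bar because each group is 1 library. The miRNA-arm block is 17386 RPM in neutrophil input and 40.2 RPM, too thin to see, in neutrophil WGA.

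Neutrophil WGA held almost none of the miRNA arms placed on RefSeq that neutrophil input held. Arm sequences summed to 40.2 RPM in neutrophil WGA, against 17386 RPM in neutrophil input, 432-fold lower (392 to 478). All 35 arms with a mean of 10 RPM or more over the pair were at least 2-fold lower, and so were all 51 such sequences; of all table sequences tested the same way, 52.0% were at least 2-fold lower. The median log2 ratio was -7.97 over the 35 arms and -1.40 over all 2324 table sequences tested, with counts under 3 reads set to 3. The counts were the same as shares of the table.

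miR-223-3p, the granulocyte miRNA, had 0.202 RPM (2 reads) in neutrophil WGA, against 2667 RPM (8295 reads) in neutrophil input, 13232-fold lower with a counting interval of 3662 to 109275. miR-16-5p, known to repress cell cycle genes, had 0.705 RPM (7 reads) in neutrophil WGA, against 4056 RPM in neutrophil input, 5750-fold lower (2790 to 14305). miR-21a-5p, an abundant miRNA of many tissues, had 0.403 RPM in neutrophil WGA, against 1464 RPM in neutrophil input, 3633-fold lower (1418 to 13339). Other arms were at 0 reads in neutrophil WGA, so their ratio has only a bound: miR-26a-5p had 0 reads there, against 724 RPM (2252 reads) in neutrophil input.
let-7i-5p had 6.75 RPM in neutrophil WGA, against 3105 RPM in neutrophil input, 460-fold lower (362 to 594). miR-30e-5p had 25.7 RPM in neutrophil WGA, against 537 RPM in neutrophil input, 20.9-fold lower (18.3 to 23.9). That is the smallest decrease among the 35 arms, and all of the 25.7 RPM is in reads of 16 or 17 bases, which make up 63.9% of the arm RPM of neutrophil WGA.

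In neutrophils the difference of the sums was smaller in the shortest reads, because of miR-30e-5p. Arm sequences of 18 bases or more summed to 14.5 RPM in neutrophil WGA, against 16665 RPM in neutrophil input, 1148-fold lower (975 to 1362). The 3 arm sequences of 16 or 17 bases summed to 25.7 RPM in neutrophil WGA, against 721 RPM in neutrophil input, 28.0-fold lower (24.6 to 32.0), and all of the RPM in WGA came from miR-30e-5p. The 16-base form of miR-30a-5p had 202 RPM in neutrophil input and 0 reads in neutrophil WGA, at least 667-fold lower. In the HOXB8 states the reads of 16 or 17 bases went the other way from the longer ones. In their WGA and input libraries all of these came from the 16-base form of miR-30e-5p, so this is not a result on short reads in general. WGA over input was 1.15 (1.13 to 1.18) in differentiated HOXB8 and 4.45 (4.22 to 4.70) in HOXB8 for 18 bases or more, and 0.151 (0.133 to 0.1699) and 0.0760 (0.0529 to 0.107) for 16 or 17 bases. The 5′ end was kept in nearly all arm reads and the 3′ end was not. Sequences with the mature 5′ end held 93.5% to 99.5% of the arm RPM in the 9 libraries. Sequences identical to the mature arm held 7.77% of it in neutrophil WGA, against 57.8% in neutrophil input, and shorter 3′ ends held 82.0%, against 29.8%. The neutrophil WGA shares rest on 399 reads. The 16-base form of miR-30e-5p alone is 63.9% of the arm RPM there, so most of the 82.0% is 1 sequence. In HOXB8 cells the purified libraries held more arms with 3′ ends longer than the RefSeq arm but on the hairpin: 33.8%, 31.8% and 25.7% in differentiated HOXB8 biotin PNGase F, biotin and WGA, against 13.0% in input, and 23.1% and 17.2% in HOXB8 biotin and WGA, against 4.86% in input. For miR-92a-3p the form 1 base longer at the 3′ end held 95.8% of its RPM summed over the 9 libraries. In HOXB8 input that form held all of its 8.01 RPM. In neither HOXB8 state was the share of that form within miR-92a-3p higher in a purified library than in input.

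A record that could not be placed on a RefSeq arm, URS00004B2A47, has the seed of miR-30e-5p in its 16-base sequence tGTAAACAtccccgac, and this sequence had 351 RPM in neutrophil WGA, against 976 RPM in neutrophil input. miR-30a-5p and miR-30c-5p have the same seed. The sequence is not counted in the arm sums, and alone it exceeds the 40.2 RPM of all arm sequences in neutrophil WGA. The 432-fold difference therefore holds for the placed arms only. What a 16-base read can be assigned to was not tested.

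In neutrophils the same was seen in sequences outside the class. Of the 919 sequences that the table calls pre-miRNA, 197 match a RefSeq hairpin or arm and share no run with rRNA, and these summed to 92.4 RPM in neutrophil WGA, against 19216 RPM in neutrophil input, 208-fold lower (195 to 222). In HOXB8 they summed to 2038 RPM in WGA, against 519 RPM in input, a ratio of 3.93 (3.74 to 4.12). The 14 such sequences that the table calls precursor RNA summed to 9.37 RPM in neutrophil WGA, against 1888 RPM in neutrophil input, 201-fold lower (164 to 250). In HOXB8 these went the other way, with 125 RPM in WGA, against 290 RPM in input, a ratio of 0.433 (0.393 to 0.477). In differentiated HOXB8 the WGA ratio was 1.29 for pre-miRNA and 0.395 for precursor RNA.

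In HOXB8 cells the sum of the arms was higher in the purified libraries than in the input. Arm sequences summed to 1879 RPM in HOXB8 WGA and 1398 RPM in HOXB8 biotin, against 511 RPM in HOXB8 input, ratios of 3.68 (3.501 to 3.86) and 2.74 (2.60 to 2.88). As shares of the table the ratios were 1.60 and 1.17. In WGA 12 of 17 arms were at least 2-fold higher and 2 lower, and in biotin 9 of 15 were higher and 3 lower. Of all table sequences, 61.5% were at least 2-fold higher in WGA and 49.5% in biotin, and 29.2% and 41.5% lower, so the shares of arms that were higher were close to that background. The median log2 ratio in WGA was 1.80 over the arms and 2.86 over all 5746 table sequences tested, and in biotin it was 1.44 over the arms and 0.87 over all 4442. On the scale of table shares 8 of the 17 arms were higher and 5 lower in WGA, and 4 of the 15 higher and 4 lower in biotin.

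miR-27b-3p, from a cluster with miR-23b and miR-24, was the highest arm of both HOXB8 purifications. It had 627 RPM in HOXB8 WGA and 481 RPM in HOXB8 biotin, against 5.07 RPM (19 reads) in HOXB8 input, ratios of 124 (79.0 to 206) and 94.9 (60.7 to 158). It made up 33.4% and 34.4% of the arm RPM in those libraries. Without it the log2 ratio of the arm sum was 1.31 in place of 1.88 in WGA and 0.86 in place of 1.45 in biotin.
miR-181a-5p, known from lymphoid and early blood cells, had 75.7 RPM in HOXB8 WGA and 55.4 RPM in HOXB8 biotin, against 0 reads in HOXB8 input, at least 94.5-fold and at least 69.1-fold higher against a floor of 3 reads in the input. miR-93-5p had 66.1 RPM in HOXB8 WGA and 32.8 RPM in HOXB8 biotin, against 1.33 RPM (5 reads) in HOXB8 input. miR-92a-3p, of the miR-17 to miR-92 cluster, had 195 RPM in HOXB8 WGA and 232 RPM in HOXB8 biotin, against 8.01 RPM in HOXB8 input, ratios of 24.4 (16.99 to 36.3) and 28.96 (20.2 to 43.1). Not every arm was higher. miR-21a-5p had 34.4 RPM in HOXB8 WGA and 19.9 RPM in HOXB8 biotin, against 98.0 RPM in HOXB8 input, 2.85-fold (2.38 to 3.41) and 4.92-fold (4.01 to 6.07) lower. miR-30e-5p had 6.88 RPM in HOXB8 WGA and 6.90 RPM in HOXB8 biotin, against 90.8 RPM in HOXB8 input, 13.2-fold lower in each (9.42 to 18.96 in WGA). let-7i-5p had 86.2 RPM in HOXB8 WGA and 59.6 RPM in HOXB8 biotin, against 78.5 RPM in HOXB8 input, and the interval of the WGA ratio (0.948 to 1.27) spans 1.

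In differentiated HOXB8 cells the sum of the arms differed less between purified libraries and input. Arm sequences summed to 3204 RPM in WGA and 3954 RPM in biotin, against 3027 RPM in input, ratios of 1.06 (1.04 to 1.08) and 1.31 (1.28 to 1.33), and as shares of the table both fell below 1, to 0.768 and 0.981. In WGA 9 of 31 arms were at least 2-fold higher and 14 lower, and in biotin 14 of 35 were higher and 10 lower. Of all table sequences, 47.7% were higher and 43.3% lower in WGA, and 43.4% higher and 46.0% lower in biotin. 
miR-27b-3p had 525 RPM in differentiated HOXB8 WGA and 532 RPM in biotin, against 14.2 RPM in input, ratios of 37.0 (28.3 to 49.4) and 37.5 (28.7 to 50.02). miR-181a-5p had 125 RPM in WGA and 265 RPM in biotin, against 5.78 RPM in input, ratios of 21.7 (14.3 to 34.8) and 46.0 (30.3 to 73.5). miR-92a-3p had 455 RPM in WGA and 785 RPM in biotin, against 101.3 RPM in input, ratios of 4.49 (4.04 to 4.999) and 7.74 (6.99 to 8.61). These 3 arms were thus higher in the WGA and biotin libraries of both HOXB8 states, and in neutrophil WGA they had 0.302, 0.202 and 0.504 RPM, against 90.99, 24.4 and 336 RPM in neutrophil input.
miR-24-3p had 651 RPM in differentiated HOXB8 WGA and 341 RPM in biotin, against 200.03 RPM in input, and was the highest arm of that WGA library. miR-16-5p had 119 RPM in WGA and 348 RPM in biotin, against 505 RPM in input, ratios of 0.236 (0.218 to 0.255) and 0.689 (0.650 to 0.730). miR-223-3p had 18.98 RPM in WGA and 56.0 RPM in biotin, against 185 RPM in input, ratios of 0.103 (0.0860 to 0.122) and 0.303 (0.269 to 0.342).

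**Figure D2:**
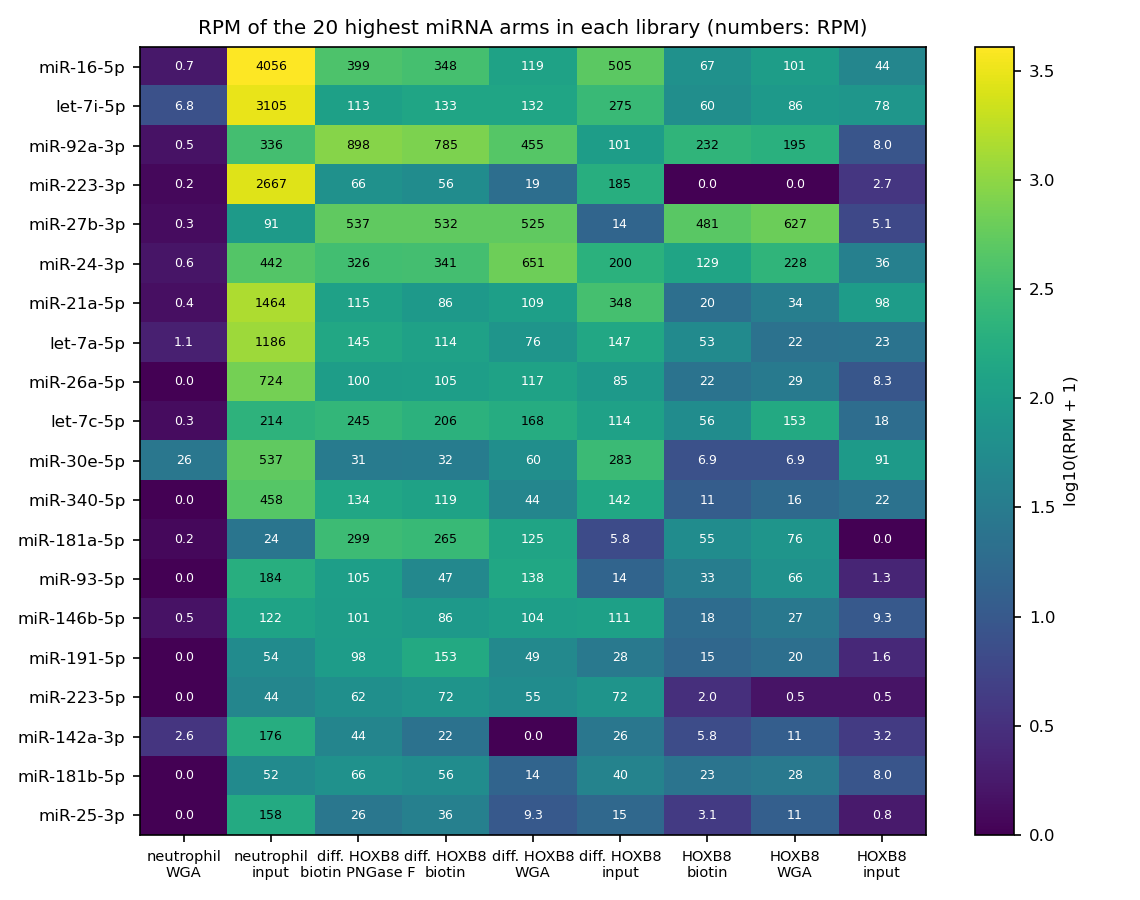
RPM of the 20 miRNA arms with the highest summed RPM (rows) in each library (columns), printed in each cell and coloured by log10(RPM + 1). The neutrophil WGA column reaches 25.7 RPM in the miR-30e-5p row and 6.75 RPM in the let-7i-5p row and is lower in the other rows, and the miR-27b-3p row is high in all 5 HOXB8 purified libraries (481 to 627 RPM) and low in their inputs (14.2 and 5.07 RPM).

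In differentiated HOXB8 13 of 32 arms were at least 2-fold higher in biotin than in WGA and 2 lower, against 28.5% higher and 34.7% lower of all table sequences. In HOXB8 1 of 18 arms was higher in biotin than in WGA and 3 lower, against 8.89% higher and 41.8% lower of all table sequences. Biotin over WGA in differentiated HOXB8 was 2.95 (2.46 to 3.56) for miR-223-3p, 2.92 (2.72 to 3.14) for miR-16-5p and 2.12 (1.97 to 2.28) for miR-181a-5p, and 0.525 (0.501 to 0.549) for miR-24-3p.

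Arm sequences summed to 4290 RPM in differentiated HOXB8 biotin PNGase F, against 3954 RPM in biotin, a ratio of 1.08 (1.07 to 1.10). Of 36 arms 7 were at least 2-fold higher and 2 lower, against 13.9% higher and 16.4% lower of all table sequences. miR-27b-3p had 537 RPM with PNGase F, against 532 RPM without it, a ratio of 1.01 (0.966 to 1.06). miR-92a-3p had 898 RPM, against 785 RPM, a ratio of 1.14 (1.10 to 1.19). Arms with large ratios were miR-17-5p, with 23.9 RPM (154 reads) with PNGase F, against 0 reads without it, and let-7b-5p, with 34.0 RPM, against 7.46 RPM. miR-324-5p went the other way, with 0 reads with PNGase F, against 27.8 RPM (224 reads) without it. The labels do not say whether the library with PNGase F holds the released or the retained RNA.

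Between the inputs, arms were higher in differentiated HOXB8 than in HOXB8, and higher still in neutrophils. These single libraries also differ in table coverage, and the neutrophils came from marrow while HOXB8 cells are a line. Maturity cannot be told apart from such differences. In these bulk samples fewer cells with an arm and less of it per cell cannot be told apart either. Arm sequences summed to 3027 RPM in differentiated HOXB8 input, against 511 RPM in HOXB8 input, a ratio of 5.92 (5.64 to 6.22), and 3.32 as shares of the table. All 24 arms with a mean of 10 RPM or more were at least 2-fold higher, and all 28 such sequences, against 34.2% of all table sequences. As shares of the table all 24 stayed above 1 and 19 stayed at least 2-fold higher. The median log2 ratio was 2.70 over the arms and 0.21 over all 3719 table sequences tested.
miR-223-3p had 185 RPM in differentiated HOXB8 input, against 2.67 RPM (10 reads) in HOXB8 input, a ratio of 69.2 (37.4 to 145). miR-223-5p, the other arm of the same hairpin, had 71.7 RPM, against 0.534 RPM (2 reads), a ratio of 134 (36.8 to 1114). miR-210-3p, known as a hypoxia-responsive miRNA, had 25.5 RPM, against 1.07 RPM. miR-92a-3p, of a cluster known from proliferating cells, was also higher, with 101.3 RPM in differentiated HOXB8 input, against 8.01 RPM in HOXB8 input. So was miR-16-5p, known to repress cell cycle genes, with 505 RPM, against 43.8 RPM.

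Neutrophil input held still more of the arms. They summed to 17386 RPM in neutrophil input, against 3027 RPM in differentiated HOXB8 input, a ratio of 5.74 (5.63 to 5.86), with 30 of 42 arms at least 2-fold higher and 2 lower, against 25.9% higher and 49.3% lower of all table sequences. miR-223-3p had 2667 RPM in neutrophil input, against 185 RPM, a ratio of 14.4 (13.4 to 15.6). let-7i-5p had 3105 RPM, against 275 RPM, a ratio of 11.3 (10.6 to 12.1). miR-30a-5p had 202 RPM in neutrophil input, against 0 reads in differentiated HOXB8 input, at least 255.97-fold higher, and it was at 0 in the other 7 libraries too. miR-223-5p went the other way, with 44.4 RPM in neutrophil input, against 71.7 RPM in differentiated HOXB8 input, a ratio of 0.619 (0.501 to 0.763).

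**Figure D3:**
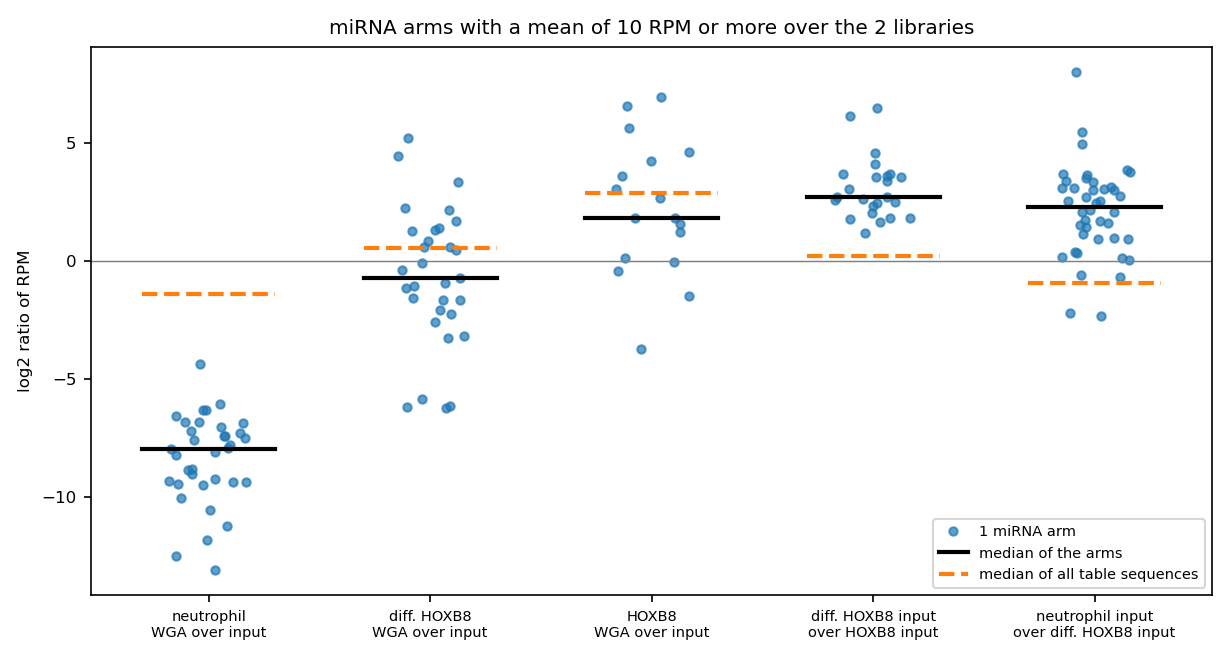
Log2 ratio of RPM (y axis) for each miRNA arm with a mean of 10 RPM or more, in 5 pairs of libraries (x axis), with the median of the arms as a solid line and that of all table sequences as a dashed line. All 35 arms of the neutrophil WGA pair lie below -4, and all 24 arms of the differentiated HOXB8 to HOXB8 input pair lie above 1.

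The miRNA lists, which were drawn up with earlier results of these data known, were present in part. Of 13 myeloid miRNAs 7 were found as 9 arms, and their sum was 4.33 RPM in neutrophil WGA against 4969 RPM in neutrophil input; 8 of 8 tested arms were at least 2-fold higher in differentiated HOXB8 input than in HOXB8 input, as were all 24 arms tested there and 34.2% of all table sequences. In the WGA and biotin pairs of differentiated HOXB8 2 of 8 and 1 of 9 were higher and 4 and 4 lower, against 47.7% and 43.4% higher and 43.3% and 46.0% lower of all table sequences. Of 10 let-7 members 6 were found, with 8.16 RPM in neutrophil WGA against 4754 RPM in neutrophil input, and 417 RPM and 508 RPM in differentiated HOXB8 WGA and biotin against 549 RPM in input. Of 6 members of the miR-15 and miR-16 family 3 were found, with 0.705 RPM in neutrophil WGA against 4168 RPM in neutrophil input.
Members of the miR-17, miR-106a and miR-106b clusters, known from proliferating cells, were low in HOXB8 input and in neutrophil WGA. Of 13 members 5 were found (miR-17, miR-20a, miR-25, miR-92a and miR-93), with 0.504 RPM in neutrophil WGA against 848 RPM in neutrophil input, 296 RPM and 277 RPM in HOXB8 WGA and biotin against 13.6 RPM in HOXB8 input, and 606 RPM and 872 RPM in differentiated HOXB8 WGA and biotin against 161 RPM in input. Of 18 progenitor and Hox-locus miRNAs 4 were found, all from the miR-181 and miR-29 families, with 104 RPM and 84.5 RPM in HOXB8 WGA and biotin against 8.81 RPM in HOXB8 input. The Hox-locus members miR-10a, miR-10b, miR-196a and miR-196b were not found among the arm sequences. Of 5 miR-30 members 3 were found, with 16.1 RPM and 7.37 RPM in HOXB8 WGA and biotin against 90.8 RPM in HOXB8 input. Record URS00004B2A47, which has their seed, is not counted among them. Whether it is a form of miR-30b or miR-30d, the listed members not found, was not tested, so the count of members found may be too low. Of 22 markers of other cells, erythroid, lymphoid, muscle, brain, epithelial, liver and stromal, 1 was found, miR-128 of brain, at 0 to 7.58 RPM. The table may hold only part of the miRNA reads, so a miRNA not found in it may still be in the libraries.

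A test across WGA and input could use the 3 kinds of cell as its only repeats. limma on log2(RPM + 1), with the kind of cell as a block and Benjamini-Hochberg adjustment over 17017 table sequences, called 338 of them, which is 1.99%, with 335 (1.97%) lower and 3 (0.0176%) higher in WGA. Of 663 class sequences tested 6 were lower and 0 higher, and 57 had an unadjusted p under 0.05. edgeR's quasi-likelihood test on the recovered reads called 0 of the 663, with 25 at an unadjusted p under 0.05. The arm sequence called by limma was the 19-base form of miR-223-3p, with a log2 change of -5.86 in WGA (95% interval -8.82 to -2.91; limma adjusted p = 0.00903). It had 0 RPM in each WGA library, against 1411 RPM in neutrophil input, 52.8 RPM in differentiated HOXB8 input and 1.60 RPM in HOXB8 input. The sequence with the smallest adjusted p in the class, a 21-base sequence that shares a run with rRNA, fell by 6.998 on the log2 scale in WGA (limma adjusted p = 0.000383). Without the neutrophil pair limma called 59 of 643 class sequences, 22 higher and 37 lower, and 1964 of 16080 table sequences, without the HOXB8 pair 3, and without the differentiated HOXB8 pair 0, with 11 at an unadjusted p under 0.05.

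The single most abundant sequence of the class was assigned to miR-5099. This record has 12 sequences, all ending in the same 16 bases, and the 16-base sequence itself held 78.8% of their RPM. Of the 12, 4 lie on the RefSeq hairpin Mir5099 (GRCm38.p6, chr12:36816205-36816278, plus strand), shown with the 16 bases in capitals.
Mir5099: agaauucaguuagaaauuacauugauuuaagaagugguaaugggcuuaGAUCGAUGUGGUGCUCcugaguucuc
16-base sequence of the table: GATCGATGTGGTGCTC
20-base sequence of the table: cttaGATCGATGTGGTGCTC
The same 16 bases are in the table's rRNA class, at positions 657 to 672 of its 45S pre-rRNA record, so reads of these 16 bases cannot be told apart between the hairpin and pre-rRNA. Whether the bases before them in the longer sequences tell hairpin from pre-rRNA was not tested. The record summed to 3229 RPM in neutrophil WGA, against 318 RPM in neutrophil input, a ratio of 10.1 (9.52 to 10.8). It summed to 2383 RPM and 2332 RPM in differentiated HOXB8 WGA and biotin, against 961 RPM in input, ratios of 2.48 (2.39 to 2.57) and 2.43 (2.34 to 2.52). It summed to 3405 RPM and 2244 RPM in HOXB8 WGA and biotin, against 1658 RPM in HOXB8 input, ratios of 2.05 (1.995 to 2.11) and 1.35 (1.31 to 1.39) that fall to 0.891 and 0.579 as shares of the table. It is the part of the class that was higher in WGA in all 3 kinds of cell in RPM, and the mean log2 ratio was 1.90 ± 1.26 (SD, n = 3 pairs).

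The rRNA-sharing sequences formed nested sets. The largest set was 43 sequences of 16 to 54 bases that end at position 12651 of the 45S record, and 25 of them end in exactly the same 16 bases, shown in capitals for 4 lengths.
16-base form: GGAGAGCCGTTCGTCT
20-base form: gtgcGGAGAGCCGTTCGTCT
24-base form: tccggtgcGGAGAGCCGTTCGTCT
36-base form: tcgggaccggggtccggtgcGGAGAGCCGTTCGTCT
This set held 47.4% of the class RPM in neutrophil WGA, 22.3% in neutrophil input, and 17.3% to 37.7% in the 7 HOXB8 libraries. In RPM the set was lower in neutrophil WGA, with 5344 RPM, against 6055 RPM in neutrophil input. In the HOXB8 states the lengths seen differed between purified and input libraries, where purification and the size step of the inputs cannot be told apart. The 36-base form had 3361 RPM in HOXB8 biotin and 2320 RPM in HOXB8 WGA, against 89.7 RPM in HOXB8 input. It had 2445 RPM, 2612 RPM and 1469 RPM in differentiated HOXB8 biotin PNGase F, biotin and WGA, against 133 RPM in input. In neutrophils it had 232 RPM in WGA, against 273 RPM in input.
The 24-base form went the other way. It had 486 RPM and 418 RPM in HOXB8 biotin and WGA, against 621 RPM in HOXB8 input, and 268 RPM, 199 RPM and 277 RPM in differentiated HOXB8 biotin PNGase F, biotin and WGA, against 860 RPM in input. In neutrophils it had 2072 RPM in WGA, against 2003 RPM in input. Reads of 30 bases or more made up 48.6% to 73.7% of the set in the 5 HOXB8 purified libraries, 14.6% in neutrophil WGA, and 17.1% to 21.6% in the 3 inputs. Neutrophil WGA thus lay with the inputs rather than with the HOXB8 purified libraries in read length.

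**Figure D4:**
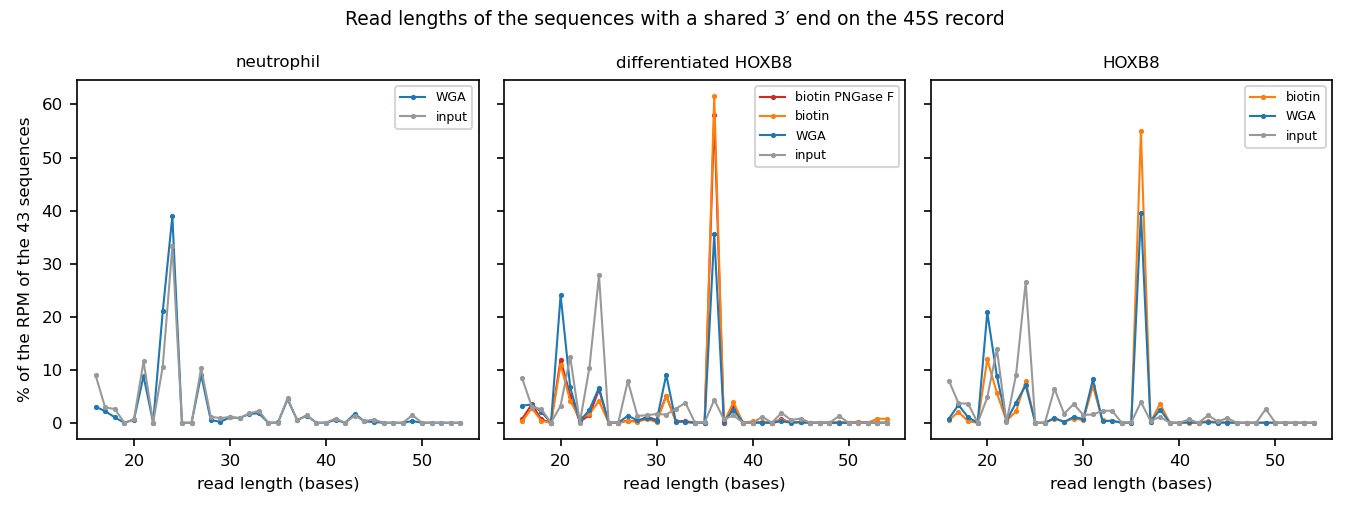
Share of the RPM of the 43 sequences with a shared 3′ end (y axis) by read length in bases (x axis), with a panel for each kind of cell and a line for each library. The HOXB8 purified libraries peak at 36 bases, and neutrophil WGA and the 3 inputs peak at 24 bases.

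A record elsewhere on the 45S record, URS00000ED635 with 58 sequences, 57 of them between positions 8290 and 8360, had 2287 RPM and 1050 RPM in HOXB8 WGA and biotin, against 281 RPM in HOXB8 input, ratios of 8.14 (7.65 to 8.68) and 3.74 (3.503 to 3.99). It had 11.99 RPM in neutrophil WGA, against 42.8 RPM in neutrophil input, a ratio of 0.280 (0.217 to 0.362).

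The sums of the 4 long records went the opposite way to the arm sums in neutrophils and HOXB8. They summed to 1435 RPM in neutrophil WGA, against 355 RPM in neutrophil input, a ratio of 4.05 (3.80 to 4.31), with 17 of 22 tested sequences at least 2-fold higher, against 34.8% of all table sequences. In HOXB8 they summed to 588 RPM in biotin and 1752 RPM in WGA, against 5318 RPM in input, 9.05-fold (8.74 to 9.37) and 3.04-fold (2.96 to 3.11) lower. In biotin 63 of 65 sequences were at least 2-fold lower and 0 higher, and in WGA 47 of 78 were lower and 8 higher, against 41.5% lower and 49.5% higher of all table sequences in biotin and 29.2% lower and 61.5% higher in WGA. In differentiated HOXB8 they summed to 510 RPM in biotin and 1327 RPM in WGA, against 2262 RPM in input. There 21 of 29 sequences were lower and 1 higher in biotin, against 46.0% and 43.4% of all table sequences. In WGA 20 of 45 were lower and 16 higher, against 43.3% and 47.7% of all table sequences, and the median log2 ratio was -0.51, against -0.74 over the 31 arms, so in that pair both leaned lower. Between inputs they were lower in the order opposite to the arms, with 2262 RPM in differentiated HOXB8 against 5318 RPM in HOXB8, and 355 RPM in neutrophils against 2262 RPM in differentiated HOXB8. Record URS0000AB0069, whose 124 sequences include 123 of the 191, had 1167 RPM in neutrophil WGA, against 151 RPM in neutrophil input, a ratio of 7.71 (7.03 to 8.47). Over the 3 inputs it had 151 RPM in neutrophil input, 1579 RPM in differentiated HOXB8 input and 4190 RPM in HOXB8 input.

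Among the 132 sequences in no group, 55 come from 5 records that also hold rRNA-sharing sequences, 29 of them from URS00000929B0. All 132 together summed to 648 RPM in neutrophil WGA, against 2021 RPM in neutrophil input, and to 5195 RPM and 2814 RPM in HOXB8 WGA and biotin, against 2345 RPM in HOXB8 input, ratios of 2.22 and 1.20 that fall to 0.962 and 0.513 as shares of the table. The single sequence of record URS0000A89064 was at 0 reads in all 5 HOXB8 purified libraries, and had 11.8 RPM in neutrophil WGA against 50.2 RPM in neutrophil input; it had 152 RPM in differentiated HOXB8 input and 249 RPM in HOXB8 input.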

How the data were processed

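Small RNA was sequenced in 9 libraries, 1 for each group. The authors deposited the values as RPM, reads of each sequence scaled to the reads of its library; the build is mm10, per the submitters' processing notes, and no source used here gives the aligner or filters. The deposited table is named for sequences that are not miRNA isoforms, so its miRNA class may hold only part of the miRNA reads. Every value came out as a whole multiple of 1 read (tolerance 0.01), which gave the whole reads back (3110323 to 9922659 per library). The table gives sequence records rather than miRNA names, and arms were named by matching each sequence to RefSeq hairpins, which placed 105 of 712 (5 of them also share a run with rRNA). An arm or record counted as higher or lower past 2-fold among those with a mean of 10 RPM or more over the pair, with counts under 3 set to 3. limma 3.58.1 with a mean trend compared WGA with input on the log2(RPM + 1) scale; edgeR 4.0.16 on the recovered read counts was an alternative chosen after seeing the data. On simulated counts with a log2 noise SD of 1.5 limma recovered 17 of 50 sequences changed 16-fold and 43 of 50 changed 64-fold, among 16967. PCR reads are not independent molecules, and nothing says the 3 kinds of cell are replicates of a purification. The members, lists, groups and tests were chosen with earlier results of these data known. Named were the 10 highest arms or records, the 3 highest of each library, the 3 largest and 3 smallest ratios of each pair, limma calls and list members; records without an arm name were named in part, and other arms were chosen after their values were seen. The poly(A) RNA libraries were not used.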

Additional observations from a re-analysis of the deposited data

Results flagged for a closer look

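The WGA to input ratio went in opposite directions in the HOXB8 states and in neutrophils for 5 sums, with 1 pair of libraries for each kind of cell. The difference between the kinds of cell was not tested in any of them. For the miRNA class the log2 ratio was -1.27 in neutrophils, 0.21 in differentiated HOXB8 and 0.79 in HOXB8. For the miRNA-arm sequences it was -8.76, 0.082 and 1.88 in the same order. For the rRNA-sharing sequences it was -0.26, 0.26 and 1.59. For the sequences in no group it was -1.64, 0.30 and 1.15. The long records went the other way, with 2.02 in neutrophils, -0.77 in differentiated HOXB8 and -1.60 in HOXB8. As shares of the table the class gave -0.25 and -0.41, and the sequences in no group -0.16 and -0.056, in differentiated HOXB8 and HOXB8, so for these the opposite direction was not seen on that scale. On it the arms gave -0.38 and 0.67 and the rRNA-sharing sequences -0.20 and 0.39 in differentiated HOXB8 and HOXB8, so for these it was seen in HOXB8 and not in differentiated HOXB8. The long records kept it in both, with -1.23 and -2.81.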

How the results depend on the processing

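No paired analysis was possible because the small RNA libraries carry no replicate numbers, other than the pairing of WGA with input by kind of cell in limma, given below with and without that block. Each list below gives 8 pairs in this order: WGA over input in neutrophils, differentiated HOXB8 and HOXB8, biotin over input in differentiated HOXB8 and HOXB8, PNGase F over biotin, differentiated HOXB8 over HOXB8 input, and neutrophil over differentiated HOXB8 input. The class log2 ratios were -1.27, 0.21, 0.79, 0.27, 0.28, -0.025, -0.078 and 1.08. As shares of the table they were -1.30, -0.25, -0.41, -0.15, -0.95, -0.023, -0.91 and 0.75. Without the record with the highest sum they were -1.79, 0.021, 0.49, -0.0051, -0.30, 0.056, -0.20 and 1.14. Without the 3 highest sequences they were -1.91, 0.029, 0.64, -0.0080, -0.084, -0.0098, -0.049 and 1.16. With 18 to 25 bases only they were -1.92, 0.056, 0.36, -0.043, -0.30, 0.090, 0.10 and 1.56. As the number of distinct sequences detected they were -0.62, -0.58, -0.21, -0.28, -0.17, -0.072, 0.0083 and -0.44. A minimum of 10 reads removed no sequence, since the lowest has 42 reads over the 9 libraries, and so tested nothing. The arm log2 ratios were -8.76, 0.082, 1.88, 0.39, 1.45, 0.12, 2.57 and 2.52. As shares of the table the second to the fifth were -0.38, 0.67, -0.028 and 0.23, and the last pair were 1.73 and 2.19. Without the highest arm of the pair the first to the fifth were -8.40, -0.15, 1.31, 0.12 and 0.86, and the last pair were 2.43 and 2.40. Arms or records at least 2-fold higher numbered 5, 19, 27, 22, 19, 9, 26 and 38, and those lower 51, 32, 20, 30, 25, 6, 11 and 22. As shares of the table the fifth had 10 higher and the seventh 29 lower, and the rest stayed within 1.5 times. With a mean of 100 RPM or more 2, 5, 9, 5, 6, 0, 6 and 12 were higher and 14, 8, 5, 9, 4, 0, 3 and 6 lower. Without a filter 14, 39, 48, 43, 47, 29, 52 and 51 were higher and 90, 71, 43, 59, 46, 22, 17 and 39 lower. As single sequences 24, 67, 115, 59, 65, 27, 39 and 63 were higher and 82, 74, 85, 73, 103, 25, 78 and 58 lower. limma called 338 table and 6 class sequences. A pseudocount of 10 gave 119 and 1, shares of all table reads 664 and 16, and no block for the kind of cell 179 and 2, and edgeR gave 14 and 0. Leaving out a kind of cell gave 15 to 1964 table and 0 to 59 class sequences, with the highest counts without neutrophils and the lowest without differentiated HOXB8. The cause of these shifts was not tested, beyond the fewer or more features each setting leaves. Depth limits the arms of neutrophil WGA, where 9 of 16 detected arms had more than 3 reads, and miR-27b-3p and miR-223 in HOXB8 input, where counts were 19 reads or fewer.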
